A study of Mus musculus with 8 samples.

Results

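The BCL2 family sets whether the mitochondrial outer membrane is breached in a dying cell. Its 10 members described here were the pro-survival genes Bcl2, Bcl2l1 (BCL-XL) and Mcl1, the effector genes Bax, Bak1 and Bok, and the BH3-only genes Bcl2l11 (BIM), Pmaip1 (NOXA), Bmf and Bbc3 (PUMA). They were taken as every non-control array probe whose RefSeq accession belonged to one of these genes, which gave 12 probes of 55681, for 10 genes of 20284 that could be named. All 12 were well above background on all 8 arrays, so all 10 members were among the 14109 genes tested.

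RNA was measured in mouse bone marrow cells labelled granulocyte progenitors (GPs), a name for marrow cells committed to making granulocytes. They were sorted into a Flt3+ and a Flt3- fraction by the cytokine receptor Flt3. Whether both fractions are so committed was not tested, and marker signal of each group is given below. The 4 groups were Irf8KO Flt3+ GPs, wild-type Flt3+ GPs, Irf8KO Flt3- GPs and wild-type Flt3- GPs, each from primary sorted cells and each with 2 one-colour arrays, 1 from each of 2 independent experiments. Irf8KO is the submitters' label for mice deficient in Irf8, a transcription factor that directs progenitors towards monocytes and dendritic cells and restrains neutrophil production. The allele, the strain, the age and the number of animals behind an array are not given in the sources used here. The p-values therefore measure the spread between these arrays.

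In background, pro-survival proteins hold Bax and Bak in check, BH3-only proteins bind and disable the pro-survival proteins, and freed Bax and Bak form the pores through which cytochrome c leaves to start the caspase cascade. In the mouse, neutrophils and their progenitors depend on Mcl1 for survival. Most BH3-only genes are switched on at the level of RNA by stress or by cytokine withdrawal, whereas much of the family is also governed by protein stability and binding, which arrays do not measure.

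All values are log2 signal relative to the 75th percentile of the same array, so they compare 1 probe across arrays and not 1 gene with another. Each difference is the mean of the group named first minus that of the other, tested with limma on all 8 arrays. A difference is called where the p-value adjusted over all 14109 genes is under 0.05. Replicate arrays correlated at 0.996 to 0.998 across genes. All 8 arrays were read from 1 slide in 1 scan, with the genotypes in separate slide rows and the populations in separate columns, so a group and its place on that slide cannot be told apart. Flt3 RNA followed the sort, at 6.29 and 6.30 in Irf8KO Flt3+ GPs against 2.71 and 2.68 in Irf8KO Flt3- GPs, and at 6.21 and 6.21 in wild-type Flt3+ GPs against 1.69 and 1.66 in wild-type Flt3- GPs. Signal of the Irf8 probe was above wild type on arrays with the Irf8KO label, by 0.84 in Flt3+ GPs (SE 0.0510, adjusted p = 0.000226) and 0.72 in Flt3- GPs (SE 0.0510, adjusted p = 0.000399). Whether that probe lies in the deleted part is not given, so the genotype rests on the labels, and Irf8KO below means arrays labelled so.

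RefSeq promoter windows (250 bases before to 50 after a start, build GRCm38.p6) were available for 9 of the 10 members, in 16 windows, and not for Pmaip1. The windows below belong to the 3 members with the widest range over the arrays for which a window was available, Bok, Bmf and Bcl2, and to the BH3-only genes Bcl2l11 and Bbc3, which FOXO factors are known to activate. Capitals mark a match, on either strand, to 1 of 6 short motifs chosen after the data were seen. These were GGAANNGAA (the composite of ETS and IRF factors), GAAANNGAA (the interferon response core), GAGGAAGT (PU.1), GTAAACA (forkhead factors), TTGCNNAA (C/EBP) and CACGTG (E-box). The forms of GGAANNGAA and GAAANNGAA searched first were 1 base longer and matched no member window.
Bok promoter, chr1:93685325-93685624, plus strand: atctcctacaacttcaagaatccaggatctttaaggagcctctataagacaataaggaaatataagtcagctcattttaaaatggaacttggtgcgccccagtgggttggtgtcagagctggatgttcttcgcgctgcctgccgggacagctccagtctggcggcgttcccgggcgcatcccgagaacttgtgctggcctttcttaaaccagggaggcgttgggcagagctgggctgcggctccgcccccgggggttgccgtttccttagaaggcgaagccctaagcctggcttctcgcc
Bmf promoter, chr2:118547550-118547849, minus strand: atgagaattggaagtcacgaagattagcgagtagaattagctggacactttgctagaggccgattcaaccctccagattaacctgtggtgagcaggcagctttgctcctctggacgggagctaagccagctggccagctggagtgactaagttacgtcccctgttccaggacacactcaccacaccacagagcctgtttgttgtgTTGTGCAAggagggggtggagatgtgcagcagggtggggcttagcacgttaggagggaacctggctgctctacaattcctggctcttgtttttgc
Bcl2 promoter, chr1:106714241-106714540, minus strand: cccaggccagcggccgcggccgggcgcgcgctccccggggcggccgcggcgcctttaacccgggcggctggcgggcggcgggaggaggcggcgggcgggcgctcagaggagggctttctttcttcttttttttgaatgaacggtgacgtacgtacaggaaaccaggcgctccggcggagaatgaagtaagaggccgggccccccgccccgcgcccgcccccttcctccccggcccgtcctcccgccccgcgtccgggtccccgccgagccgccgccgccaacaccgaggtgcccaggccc
Bcl2l11 promoter, chr2:128125788-128126087, plus strand: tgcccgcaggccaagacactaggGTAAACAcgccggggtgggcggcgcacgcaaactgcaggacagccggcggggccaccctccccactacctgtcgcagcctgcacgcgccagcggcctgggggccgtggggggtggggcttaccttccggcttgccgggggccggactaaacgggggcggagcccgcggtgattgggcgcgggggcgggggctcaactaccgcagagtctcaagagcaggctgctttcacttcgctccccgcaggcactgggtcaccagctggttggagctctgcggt
Bbc3 promoter, chr7:16310011-16310310, plus strand: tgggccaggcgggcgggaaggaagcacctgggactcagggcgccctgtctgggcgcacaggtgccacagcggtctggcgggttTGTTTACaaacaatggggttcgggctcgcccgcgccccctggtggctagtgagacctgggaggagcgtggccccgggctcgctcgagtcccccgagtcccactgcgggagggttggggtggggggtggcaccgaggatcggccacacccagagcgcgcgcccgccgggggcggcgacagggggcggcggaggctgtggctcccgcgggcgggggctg

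GGAANNGAA was found in 1 of the 16 member windows, another of Bmf, against 8.24% of all 32851 windows of that length. GAAANNGAA was found in none, against 8.56% of all windows. GTAAACA was found in 2 member windows, the Bcl2l11 and Bbc3 windows printed above, against 3.65% of all windows. Bcl2l11 had 2 windows and Bbc3 had 3, and for each gene the window printed was the only one with GTAAACA. The printed windows therefore do not stand for all windows of these genes, and binding of FOXO factors was not tested. TTGCNNAA was found in 2 of the 3 Bmf windows, 1 of them printed, against 10.8% of all windows. CACGTG was found in 2 member windows, 1 each of Bax and Bbc3 (7.15% of all windows), and GAGGAAGT in the Bak1 window alone among them (3.20% of all windows). The Bok and Bcl2 windows held none of the 6 motifs.

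**Figure D1:**
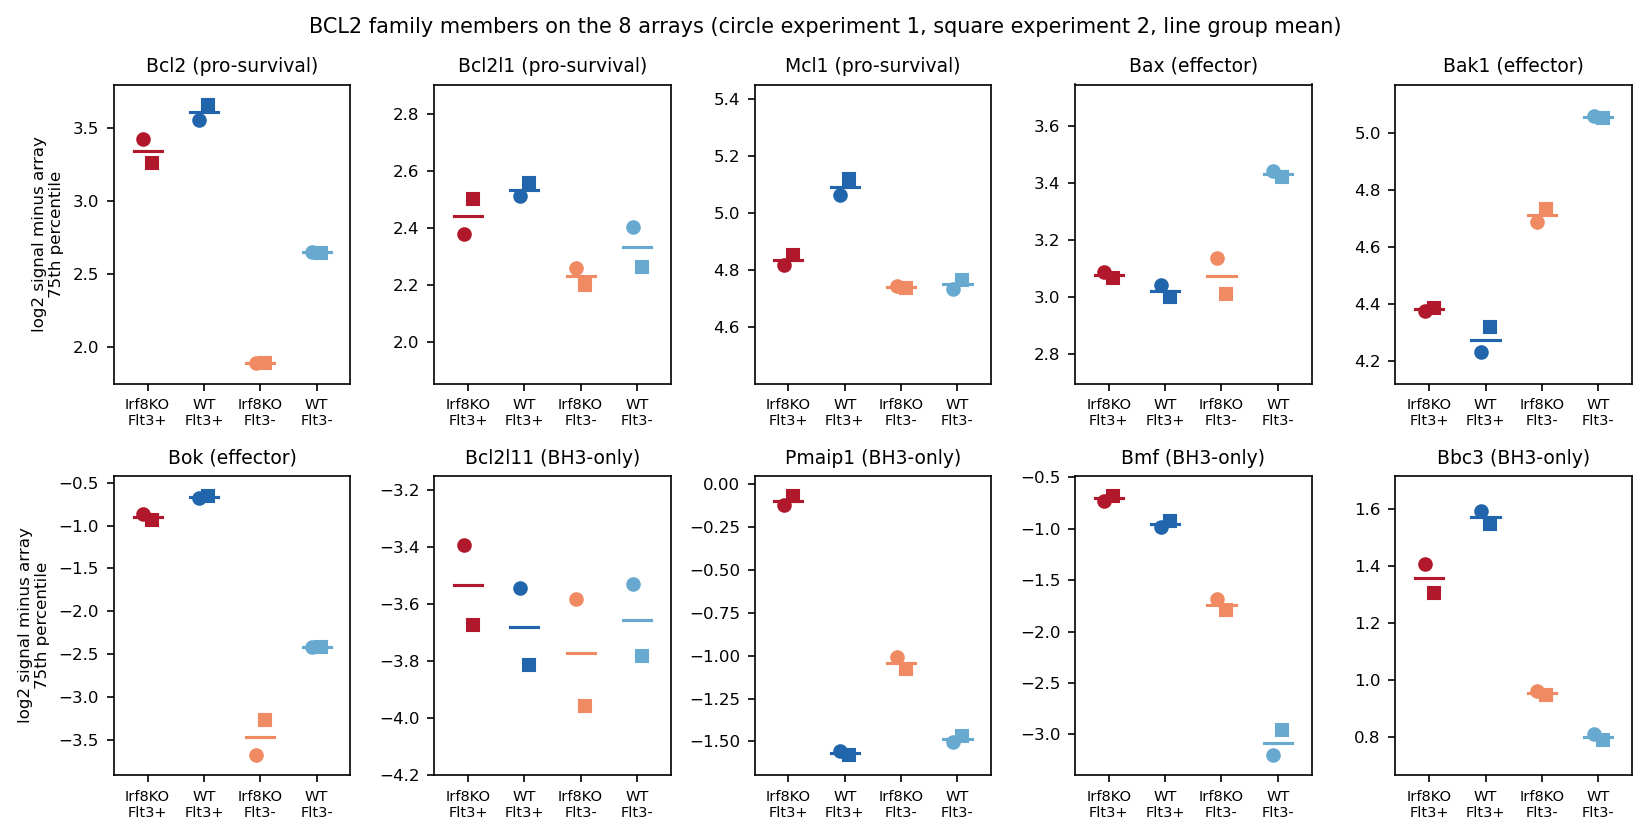
Signal of the 10 members on each array (log2, relative to the array's 75th percentile; own vertical scale per gene), with Irf8KO left of wild type and Flt3+ left of Flt3-; circles are experiment 1, squares experiment 2 and lines group means. Bok and Bmf had the widest ranges, and for Bcl2l11 the experiment 1 array lay above the experiment 2 array in all 4 groups.

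The first comparison asked how family members differed between Irf8KO and wild type in Flt3+ GPs. Pmaip1 was higher in Irf8KO, by 2.77-fold, and Bcl2, Mcl1 and Bbc3 were lower by 1.20-fold, 1.19-fold and 1.16-fold. In all, 4 of 10 members were called, against 29.0% of all genes, 1 higher (16.5% of all genes) and 3 lower (12.5%). Pmaip1 alone was called with at least 2-fold, as were 4.23% of all genes. The other 6 were not called, and the members' median difference was -0.019 against 0.039 over all genes.

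Among the pro-survival genes, Bcl2 read 3.42 and 3.26 on Irf8KO Flt3+ arrays, against 3.55 and 3.66 on wild-type Flt3+ arrays. The groups did not overlap, and the difference was called (log2 difference -0.26, SE 0.0683, adjusted p = 0.0358). With the experiment number as a block it was not called (adjusted p = 0.0564). Mcl1, whose short-lived protein guards neutrophils, read 4.82 and 4.85 in Irf8KO and 5.06 and 5.12 in wild type (log2 difference -0.26, SE 0.0420, adjusted p = 0.00843). Its dimmer second probe read 2.18 and 2.29 in Irf8KO and 2.28 and 2.45 in wild type, where the groups overlapped and the difference of -0.13 was not called (adjusted p = 0.241). Bcl2l1 was not called, with a 95% interval of -0.26 to 0.078.

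No effector was called in Flt3+ GPs. The intervals of the difference were -0.076 to 0.19 for Bax, -0.0091 to 0.22 for Bak1, and -0.55 to 0.082 for Bok.

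Of the BH3-only genes, Pmaip1 read -0.12 and -0.07 on Irf8KO Flt3+ arrays against -1.56 and -1.58 on wild-type Flt3+ arrays (log2 difference 1.47, SE 0.0455, adjusted p = 1.98e-05). Of all genes, 1.23% were higher in Irf8KO by as much or more. Pmaip1 encodes NOXA, which binds Mcl1 and promotes its degradation. Bbc3, a target of p53 that binds all the pro-survival proteins, read 1.41 and 1.31 in Irf8KO and 1.60 and 1.55 in wild type (log2 difference -0.21, SE 0.0494, adjusted p = 0.0259). Bmf, which senses detachment and cytoskeletal stress, read -0.73 and -0.68 in Irf8KO and -0.99 and -0.93 in wild type, and was not called (log2 difference 0.25, SE 0.0893, adjusted p = 0.0859). With normexp background correction it was called (0.23, adjusted p = 0.0315). The groups did not overlap, as for 66.6% of all genes.

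The calls of Bcl2, Mcl1 and Bbc3 in Flt3+ GPs were lost under several alternatives. Bcl2 and Bbc3 were not called with dim probes kept in, none of the 3 was called when only these 4 arrays were fitted, and each was lost when certain arrays were left out. These were wild-type replicate 2 or Irf8KO replicate 2 for Bcl2, Irf8KO replicate 1 for Mcl1, and wild-type replicate 1 or Irf8KO replicate 2 for Bbc3 (Bcl2 -0.18 with adjusted p = 0.144 without Irf8KO Flt3+ replicate 2).

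The same comparison was made in Flt3- GPs. Bmf was 2.53-fold and Pmaip1 1.36-fold higher in Irf8KO, whereas Bok was 2.08-fold, Bcl2 1.69-fold, Bax 1.28-fold and Bak1 1.27-fold lower. With Bbc3, which was 1.11-fold higher, 7 of 10 members were called, against 43.6% of all genes. The 3 higher compare with 16.5% of all genes and the 4 lower with 27.2%. Bmf and Bok, 2 members, were called with at least 2-fold, against 3.63% of all genes. With normexp both were called but neither reached 2-fold, with log2 differences of 0.85 for Bmf and -0.35 for Bok. The members' median was -0.11 and that of all genes -0.035.

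Bcl2 read 1.89 and 1.89 on Irf8KO Flt3- arrays, against 2.65 and 2.65 on wild-type Flt3- arrays (log2 difference -0.76, SE 0.0683, adjusted p = 0.000775). Mcl1 and Bcl2l1 were not called, with intervals of -0.11 to 0.10 and -0.27 to 0.067. Under quantile normalization Mcl1 was called higher in Irf8KO (0.15, adjusted p = 0.0212), against -0.0084 with scaling to the 75th percentile over probes. For Mcl1 the groups overlapped, and its second probe differed by -0.23, which was not called, at an adjusted p of 0.05005.

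All 3 effectors were called lower in Irf8KO Flt3- GPs. Bax read 3.14 and 3.01 in Irf8KO and 3.44 and 3.42 in wild type (log2 difference -0.36, SE 0.0534, adjusted p = 0.00372). Bak1, which sits in the mitochondrial membrane, read 4.69 and 4.73 in Irf8KO and 5.06 and 5.05 in wild type (log2 difference -0.35, SE 0.0463, adjusted p = 0.00260). Under quantile normalization the Bak1 difference was -0.19, still called. Bok, an effector that escapes control by the pro-survival proteins and is kept low by protein turnover, read -3.68 and -3.27 in Irf8KO and -2.42 and -2.42 in wild type (log2 difference -1.05, SE 0.128, adjusted p = 0.00191). The 2 Irf8KO arrays of Bok differed more from each other than those of any other group for this gene, and scanner signal there was 25 and 37 units.

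Bmf read -1.68 and -1.79 on Irf8KO Flt3- arrays, against -3.20 and -2.96 on wild-type Flt3- arrays (log2 difference 1.34, SE 0.0893, adjusted p = 0.000337). All Irf8KO values were above all wild-type values. The groups did not overlap for 75.1% of all genes, and 0.907% of all genes were higher in Irf8KO by as much or more. Scanner signal of Bmf was low on the wild-type Flt3- arrays, at 45 and 57 units. Those arrays are also the reference for Bmf between the wild-type populations. Pmaip1 read -1.01 and -1.08 in Irf8KO and -1.50 and -1.47 in wild type (log2 difference 0.44, SE 0.0455, adjusted p = 0.00113). Bbc3 read 0.96 and 0.95 in Irf8KO and 0.81 and 0.79 in wild type (log2 difference 0.16, SE 0.0494, adjusted p = 0.0486), a call that was lost when any 1 of the 4 arrays was left out (values 0.14 to 0.17), with normexp, with quantile normalization and with dim probes kept in. Bcl2l11, which transmits cytokine withdrawal, was not called in either population. Its intervals were -0.30 to 0.59 in Flt3+ GPs and -0.56 to 0.33 in Flt3- GPs, and its scanner signals were low, at 23 to 45 units.

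**Figure D2:**
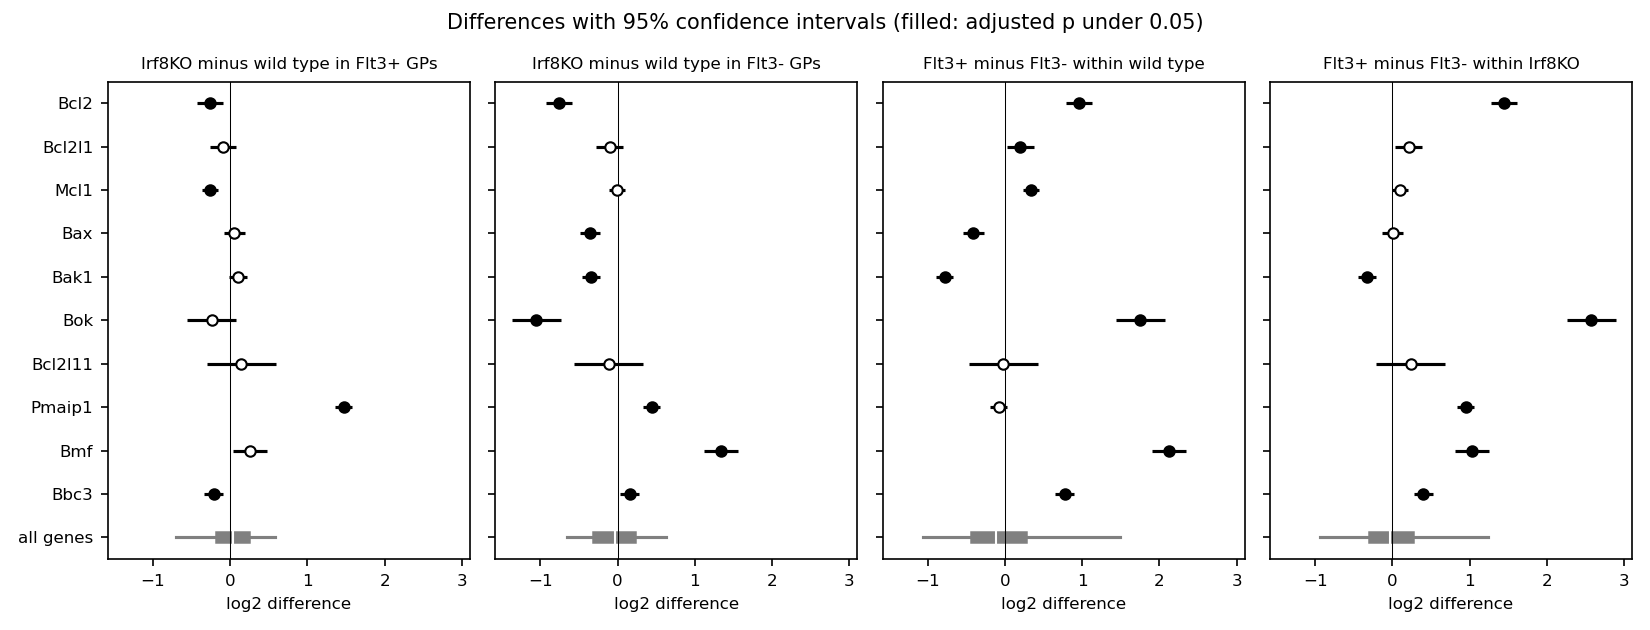
Log2 differences of the 10 members in 4 comparisons with 95% confidence intervals (filled points, adjusted p under 0.05), above the spread of all 14109 genes (thin line 5th to 95th percentile, thick line quartiles, white mark median). Pmaip1 in Flt3+ GPs and Bmf, Bok and Bcl2 in Flt3- GPs lay outside the 5th to 95th percentile of all genes for genotype.

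The genotype difference was then tested for a change between the populations, as the difference in Flt3+ GPs minus that in Flt3- GPs. It was called for 8 of 10 members, against 30.9% of all genes, 5 of them positive (21.4% of all genes) and 3 negative (9.45%). Pmaip1 had a larger difference in Flt3+ GPs (1.47 there against 0.44 in Flt3- GPs; log2 difference 1.03, SE 0.0643, adjusted p = 0.000973), and Bmf a larger one in Flt3- GPs (log2 difference -1.09, SE 0.126, adjusted p = 0.00364). Bak1 was 0.11 in Flt3+ GPs and -0.35 in Flt3- GPs (log2 difference 0.45, SE 0.0655, adjusted p = 0.00646), and Bax 0.056 and -0.36 (log2 difference 0.41, SE 0.0755, adjusted p = 0.0121). The call held under every alternative run for Pmaip1, Bmf and Bak1. It was lost without either wild-type Flt3- array for Bcl2, without replicate 2 of that group for Bbc3, under quantile normalization for Bax, and under normexp, with dim probes kept in or without most single arrays for Mcl1 (7 of 8) and Bok (5 of 8). It was also lost for Mcl1 with its probes averaged (-0.074). Calls that were kept moved by over 1.5 times for Bmf with normexp (-0.61) and, under quantile normalization, for Mcl1 (-0.51) and Bak1 (0.23), while Bok was 0.21 with normexp. Mcl1's second probe gave 0.10 (adjusted p = 0.518), of the opposite sign. Bcl2l1 was not called (-0.23 to 0.25), and Bcl2l11 was called only with the experiment number as a block (adjusted p = 0.0446).

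**Figure D3:**
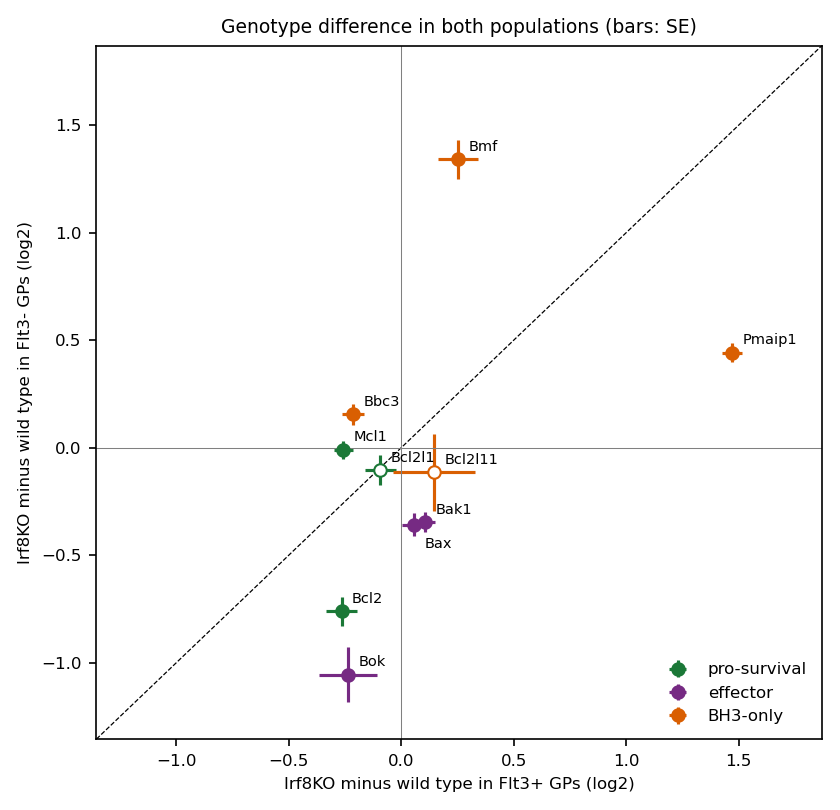
Genotype difference (Irf8KO minus wild type, log2) in Flt3+ GPs (horizontal) against Flt3- GPs (vertical), with SE bars, coloured by role; the dashed line marks equal differences, and filled points have an adjusted p under 0.05 for the difference between populations. Pmaip1 at 1.47 and 0.44 lies below the line and Bmf at 0.25 and 1.34 above it.

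Within a genotype, Flt3+ and Flt3- GPs differed widely in family RNA. In wild type, Bmf, Bok, Bcl2, Bbc3, Mcl1 and Bcl2l1 were higher in Flt3+ GPs and Bak1 and Bax lower, which made 8 of 10 members called. The background was 61.9% of all genes, with 22.6% higher and 39.2% lower. In Irf8KO, Bok, Bcl2, Bmf, Pmaip1 and Bbc3 were higher in Flt3+ GPs and Bak1 lower. This made 6 of 10, against 45.8% of all genes, with 22.1% higher and 23.6% lower. The median of the members was 0.27 in wild type against -0.12 for all genes, and 0.32 in Irf8KO against -0.030. The 2 population comparisons share no arrays with each other, but each shares arrays with both genotype comparisons.

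Bok had the widest range of the family, 3.02 over the 8 arrays, and 5.15% of all genes had a wider one. It was 5.95-fold higher in Flt3+ than in Flt3- GPs in Irf8KO (log2 difference 2.57, SE 0.128, adjusted p = 3.40e-05) and 3.37-fold higher in wild type (log2 difference 1.75, SE 0.128, adjusted p = 0.000112). Bmf was 2.05-fold higher in Irf8KO Flt3+ than Flt3- GPs (log2 difference 1.03, SE 0.0893, adjusted p = 0.000291) and 4.36-fold higher in wild type (log2 difference 2.12, SE 0.0893, adjusted p = 1.43e-05). Bcl2 was 2.73-fold higher in Irf8KO (log2 difference 1.45, SE 0.0683, adjusted p = 2.75e-05) and 1.94-fold higher in wild type (log2 difference 0.96, SE 0.0683, adjusted p = 0.000102). Bbc3 was 1.32-fold higher in Irf8KO and 1.71-fold higher in wild type. Bak1 was 1.26-fold lower in Irf8KO and 1.72-fold lower in wild type. For these genes the Flt3+ and Flt3- arrays of a genotype did not overlap, as for 76.4% of all genes in Irf8KO and 80.3% in wild type. Bok, Bmf and Bcl2 were called with at least 2-fold in Irf8KO, against 10.4% of all genes. With normexp the log2 differences in Irf8KO were 1.44 for Bok and 0.68 for Bmf, which was then under 2-fold, and that of Bmf in wild type was 1.30. Under quantile normalization Bak1 differed by -0.50 in wild type.

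Pmaip1 was 1.93-fold higher in Flt3+ GPs within Irf8KO (log2 difference 0.95, SE 0.0455, adjusted p = 2.92e-05), while in wild type its interval was -0.19 to 0.032 and it was not called. Under quantile normalization it was called lower there (-0.14, adjusted p = 0.0327). Mcl1 was called in wild type (log2 difference 0.34, SE 0.0420, adjusted p = 0.000855), but not in Irf8KO, where its interval was -0.0090 to 0.20. Under quantile normalization it was called in both, at 0.16 in Irf8KO (adjusted p = 0.0152) and 0.67 in wild type. Its second probe, set in place of the first, gave 0.24 in Irf8KO (adjusted p = 0.0396) and 0.14 in wild type (adjusted p = 0.141). With all probes fitted together neither probe was called in Irf8KO (adjusted p = 0.0630 for the second and 0.192 for the first). Bcl2l1 differed by 0.21 in Irf8KO (adjusted p = 0.0511) and 0.20 in wild type (adjusted p = 0.0465). Under quantile normalization both were called, at 0.27 in Irf8KO (adjusted p = 0.0182) and 0.36 in wild type (adjusted p = 0.00493), and the Irf8KO difference was also called among probes above background on all arrays (adjusted p = 0.0400). The wild-type call was lost with dim probes kept in, with only the groups compared fitted, with the probes averaged (0.046), with the block (adjusted p = 0.0700) and without wild-type Flt3+ replicate 1 or 2 or Flt3- replicate 2, and the gene's second probe gave -0.11 there. Bax was 1.33-fold lower in wild-type Flt3+ GPs, with an interval of -0.13 to 0.14 in Irf8KO, and differed by -0.20 in wild type under quantile normalization. Bcl2l11 was not called in either genotype without the block. With it, the 0.24 difference in Irf8KO had an adjusted p of 0.0148, and its experiment 1 array was higher than its experiment 2 array in all 4 groups.

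The order of the group means differed between members. For Bcl2 it was wild-type Flt3+, Irf8KO Flt3+, wild-type Flt3- and Irf8KO Flt3-, from high to low, and the same order held for Bok, with no neighbours overlapping for either gene. Bcl2l1 and Mcl1 had this order too, but neighbours overlapped in the middle for Bcl2l1 and between the Flt3- groups for Mcl1. Bbc3 ran from wild-type Flt3+ through Irf8KO Flt3+ and Irf8KO Flt3- to wild-type Flt3-. Bak1 ran from wild-type Flt3- through Irf8KO Flt3- and Irf8KO Flt3+ to wild-type Flt3+. Pmaip1 ran from Irf8KO Flt3+ through Irf8KO Flt3- to wild-type Flt3- and wild-type Flt3+. Bmf ran from Irf8KO Flt3+ through wild-type Flt3+ and Irf8KO Flt3- to wild-type Flt3-. Bax was highest in wild-type Flt3- GPs. Of the other 3 groups, Irf8KO Flt3- overlapped both of the others, while Irf8KO Flt3+ and wild-type Flt3+ did not overlap each other. The 4 groups of Bcl2l11 overlapped throughout.

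By likeness of centred profiles over the 8 arrays, measured as the root mean square distance in log2 units among genes that are not members, Plp2 was nearest to Bcl2 (0.069), Plxnb2 to Bok (0.10), Jchain to Pmaip1 (0.13) and Dhrs3 to Bmf (0.12). Within 0.2 there were 57 genes for Bcl2, 2 for Bok, 6 for Pmaip1 and 5 for Bmf. The next nearest were Gimap9 and 2010204K13Rik for Bcl2, Slc35f2 for Bok, Plvap and Ctr9 for Pmaip1, and Tmcc3 and Il12a for Bmf.

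Of 16 further family members, 14 were named on the array and 11 were tested. Between genotypes 1 was higher and 1 lower in Flt3+ GPs, and 3 were higher and 2 lower in Flt3- GPs. Of all genes, 16.5% higher and 12.5% lower in Irf8KO were called in Flt3+ GPs and 16.5% higher and 27.2% lower in Flt3- GPs. Bcl2l14 (BCL-G), a member whose role in death is debated, read -2.64 and -2.46 on Irf8KO Flt3+ arrays, against -0.48 and -0.41 on wild-type Flt3+ arrays (log2 difference -2.11, SE 0.0950, adjusted p = 8.45e-05). It read -2.78 and -3.01 on Irf8KO Flt3- arrays, against -1.40 and -1.34 on wild-type Flt3- arrays (log2 difference -1.53, SE 0.0950, adjusted p = 0.000286). Its dimmer second probe was also lower in Irf8KO Flt3+ GPs, at -4.44 and -4.17 against -2.60 and -2.78. In Flt3- GPs that probe read -3.40 and -4.07 in Irf8KO and -3.75 and -3.50 in wild type, where the groups overlapped. Bcl2l13 was 0.38 higher in Irf8KO Flt3+ GPs and 0.27 higher in Irf8KO Flt3- GPs. Between populations, 7 of 11 were lower and 1 higher in Flt3+ GPs in Irf8KO, and 8 were lower and 1 higher in wild type, against 23.6% of all genes lower and 22.1% higher in Irf8KO, and 39.2% lower and 22.6% higher in wild type. Bcl2l15 was above background only on the 2 wild-type Flt3- arrays. It counts as lower in Irf8KO Flt3- GPs and in Flt3+ GPs of both genotypes, although both Irf8KO groups were below background. The lower calls in wild-type Flt3+ GPs also include Bcl2a1c, above background on 1 wild-type Flt3- array and no wild-type Flt3+ array. Bcl2a1d, a copy of the pro-survival gene A1, was -1.59 in Irf8KO and -1.06 in wild type. Its value is uncertain, since the mouse carries near-identical Bcl2a1 copies that a probe may not tell apart.

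The rest of the death machinery was taken from lists of known genes. Of 22 genes of the apoptosome, caspases and their inhibitors, 6 were higher and 2 lower in Irf8KO Flt3+ GPs, and 4 were higher and 12 lower in Irf8KO Flt3- GPs. The shares of all genes were 16.5% higher and 12.5% lower in Flt3+ GPs, and 16.5% higher and 27.2% lower in Flt3- GPs. Diablo, whose protein relieves caspase inhibition, was lower in both (log2 difference -1.02, SE 0.0589, adjusted p = 0.000194 in Flt3+ GPs and log2 difference -1.20, SE 0.0589, adjusted p = 0.000156 in Flt3- GPs). Apaf1, the scaffold of the apoptosome, was 0.46 in Flt3+ GPs, and the cytochrome c gene Cycs was -0.55 in Flt3- GPs. Between populations, 14 of 22 were lower in wild-type Flt3+ GPs, against 39.2% of all genes, among them Apaf1 (-1.06) and Cycs (-0.92). Another 5 were higher there, against 22.6% of all genes. In Irf8KO 5 were higher and 7 lower, and of all genes 22.1% higher and 23.6% lower.

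Of 13 death receptor genes, 5 were higher and 1 lower in Irf8KO Flt3+ GPs, and 4 higher and 3 lower in Irf8KO Flt3- GPs. In Flt3- GPs 53.8% of the list was called, near the 43.6% of all genes, and in Flt3+ GPs 46.2%, against 29.0%. The receptor gene Fas was higher in both (log2 difference 1.15, SE 0.137, adjusted p = 0.00276 in Flt3+ GPs and log2 difference 1.20, SE 0.137, adjusted p = 0.00157 in Flt3- GPs). Between populations it was lower in Flt3+ GPs, at -1.70 in Irf8KO and -1.65 in wild type. Of 16 genes of p53 and its targets, 2 were higher and 6 lower in Irf8KO Flt3+ GPs, and 8 higher and 4 lower in Irf8KO Flt3- GPs. This compares with 16.5% higher and 12.5% lower over all genes in Flt3+ GPs, while in Flt3- GPs 16.5% of all genes were higher and 27.2% lower. The cell cycle inhibitor Cdkn1a was higher in both (1.27 and 0.94) and the membrane protein gene Perp lower in both (-1.78 and -1.94). Bbc3, Pmaip1 and Bax are themselves known p53 targets. Of 14 regulators of family proteins, 1 was higher and 1 lower in Irf8KO Flt3+ GPs and 4 were lower in Irf8KO Flt3- GPs. The share called was 14.3% in Flt3+ GPs, against 29.0% of all genes, and 28.6% in Flt3- GPs, against 43.6%. The list includes Dynll2, the dynein light chain that tethers Bmf, at -0.37 and -0.51. The 1 gene higher in Irf8KO Flt3+ GPs was the light chain gene Dynll1 (0.33, limma adjusted p = 0.0288).

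**Figure D4:**
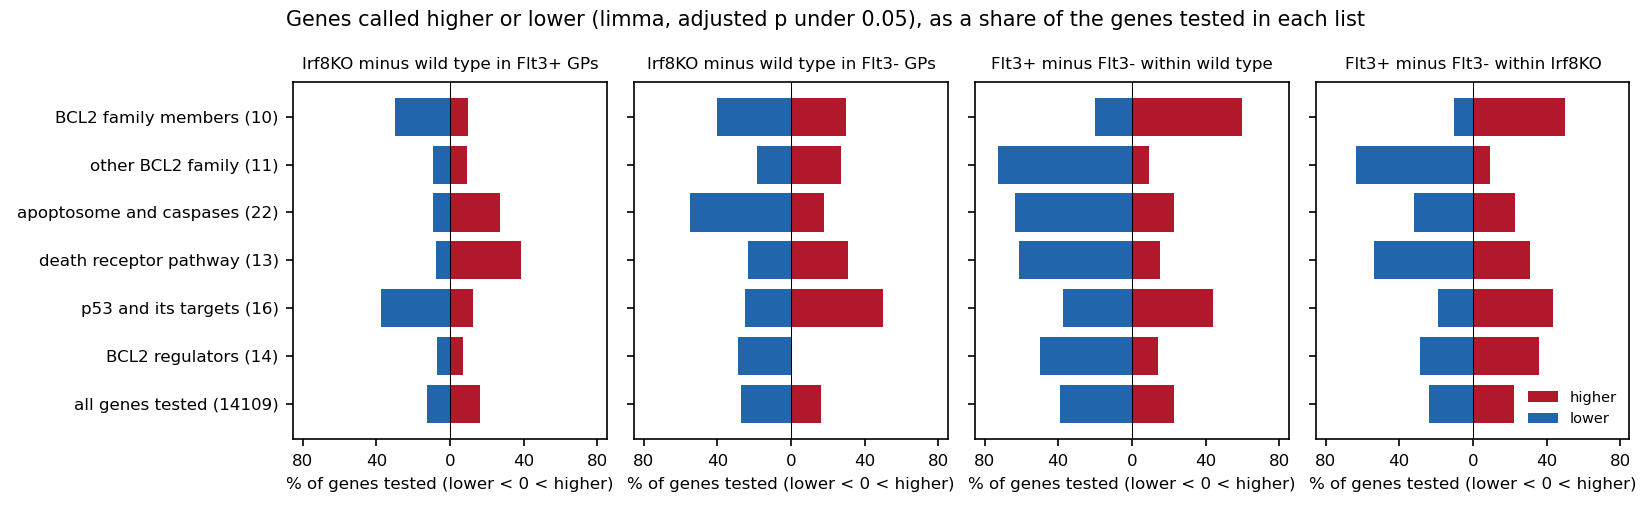
Share of the tested genes in each list called higher (right, red) or lower (left, blue) in 4 comparisons (limma, adjusted p under 0.05), with the number tested in brackets and all 14109 genes at the bottom. In Irf8KO Flt3- GPs 12 of 22 apoptosome and caspase genes were lower, against 27.2% of all genes.

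Markers of other cells moved with both factors, and their part in the results above was not tested. In bulk RNA, fewer cells of a type and less RNA per cell cannot be told apart. Summed linear signal of 8 granulocyte markers ran from 1372 to 1381 in Irf8KO Flt3+ GPs, 840 to 943 in wild-type Flt3+ GPs, 2705 to 2959 in Irf8KO Flt3- GPs and 2346 to 2484 in wild-type Flt3- GPs. Of these 8, 6 were called higher and 1 lower in Irf8KO Flt3+ GPs, and 3 higher and 2 lower in Irf8KO Flt3- GPs. Over all genes 16.5% were higher and 12.5% lower in Flt3+ GPs, and 16.5% higher and 27.2% lower in Flt3- GPs. Cebpe read below wild type in both populations, so this sum does not stand for every granulocyte marker. The sum of 13 erythroid markers was 20.6 in Irf8KO Flt3+ GPs against 79.6 to 81.8 in wild-type Flt3+ GPs, and 10.67 to 11.23 in Irf8KO Flt3- GPs against 35.0 to 35.2 in wild-type Flt3- GPs. The sum of 12 lymphoid markers was 264 to 285 in Irf8KO Flt3+ GPs, 149 to 158 in wild-type Flt3+ GPs, 20.8 to 21.2 in Irf8KO Flt3- GPs and 18.7 to 19.1 in wild-type Flt3- GPs. Of the 11 tested, 8 were higher and 1 lower in Irf8KO Flt3+ GPs, and 5 higher and 1 lower in Irf8KO Flt3- GPs. Dntt was the brightest of them in Flt3+ GPs, at 7.8 and 7.9 in Irf8KO and 6.8 and 6.9 in wild type. Ltb there read 3.41 and 3.43 in Irf8KO against 4.06 and 4.14 in wild type. The sum of 12 eosinophil, basophil and mast cell markers was 7.74 to 8.08 in Irf8KO Flt3+ GPs, 16.0 to 16.6 in wild-type Flt3+ GPs, 74.5 to 74.8 in Irf8KO Flt3- GPs and 152 in wild-type Flt3- GPs. That of 7 megakaryocyte markers was 4.18 to 4.50 in Irf8KO Flt3+, 13.2 to 14.0 in wild-type Flt3+, 4.91 to 4.95 in Irf8KO Flt3- and 7.57 to 7.63 in wild-type Flt3- GPs. That of 11 monocyte and dendritic cell markers was 359 to 368 in Irf8KO Flt3+, 252 to 281 in wild-type Flt3+, 373 to 392 in Irf8KO Flt3- and 250 to 264 in wild-type Flt3- GPs, and Xcr1 was above background on no array. Of the 10 of these that were tested, 4 were higher and 3 lower in Irf8KO Flt3+ GPs, and 4 were higher and 2 lower in Irf8KO Flt3- GPs, so the sum does not stand for every gene of the list. Ccr9, Clec9a and Cd74 were the 3 lower in Irf8KO Flt3+ GPs.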

How the data were processed

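RNA of sorted GPs was hybridised to 8 one-colour Agilent arrays, 2 per group. Per the file headers, the deposited intensity values were extracted with Agilent Feature Extraction 10.7.3.1, which subtracted background to give the processed signal, and the annotation was that of mm9. The authors' deposited value table, whose columns share 1 75th percentile, holds the same intensity values rescaled, and was an alternative.

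Control and outlier spots were left out, spots of 1 probe were averaged, and log2 signal minus the array's 75th percentile over probes was used. That percentile was taken over probes only after a fit with the percentile over spots had been seen. Both gave the same number of called members in each comparison, and the spot values are an alternative added after the data were seen, as is the second probe of Bcl2l1 and Mcl1. Probes were named by accession through RefSeq (26762 of 55681). A gene was represented by its brightest probe among those flagged as well above background in both replicates of some group, which kept 14109 genes. Group means were fitted with limma 3.58.1 in R 4.3.3 (4 residual df), with Benjamini-Hochberg adjustment within each of 5 comparisons. Intensities carry no read depth, and the 2 arrays per group limit the precision. The mean spot signal was absent, so normexp (offset 50) used the median spot signal. The method was tested on simulated data.

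The labels give the arrays a shared experiment number. The main fit did not use it, and it was taken as a pairing only in the alternative with a block. Deviations of same-numbered arrays from their group means correlated at -0.028 to 0.12 over 6 pairs of groups. All 10 members are named, and from each other list at most 4 called genes with the largest difference per comparison. Some genes that this naming rule or the lists reach are not reported here by name. The members and lists were chosen with earlier results of these data known. Alternatives changed background correction, normalization, the filter, the probe, the arrays fitted, the pairing and each array in turn.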

Additional observations from a re-analysis of the deposited data

Results flagged for a closer look

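The Irf8KO difference was not the same in both populations for 8 of 10 members, by limma's test of the difference in Flt3+ GPs minus that in Flt3- GPs, and 30.9% of all genes also passed this test. Pmaip1 had a difference between populations of 1.03 (SE 0.0643, adjusted p = 0.000973), from 1.47 in Flt3+ GPs and 0.44 in Flt3- GPs. Bok had a difference between populations of 0.82 (SE 0.182, adjusted p = 0.0216), from -0.24 in Flt3+ GPs and -1.05 in Flt3- GPs. Bcl2 had a difference between populations of 0.50 (SE 0.0966, adjusted p = 0.0149), from -0.26 in Flt3+ GPs and -0.76 in Flt3- GPs. Bak1 had a difference between populations of 0.45 (SE 0.0655, adjusted p = 0.00646), from 0.11 in Flt3+ GPs and -0.35 in Flt3- GPs. Bax had a difference between populations of 0.41 (SE 0.0755, adjusted p = 0.0121), from 0.056 in Flt3+ GPs and -0.36 in Flt3- GPs. Bbc3 had a difference between populations of -0.37 (SE 0.0699, adjusted p = 0.0136), from -0.21 in Flt3+ GPs and 0.16 in Flt3- GPs. Bmf had a difference between populations of -1.09 (SE 0.126, adjusted p = 0.00364), from 0.25 in Flt3+ GPs and 1.34 in Flt3- GPs. Mcl1 had a difference between populations of -0.25 (SE 0.0594, adjusted p = 0.0270), from -0.26 in Flt3+ GPs and -0.0084 in Flt3- GPs. Its second probe gave 0.10, of the opposite sign. Only the calls of Pmaip1, Bmf and Bak1 held under every alternative run, and leaving out 1 array gave 4 to 7 called members.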

How the results depend on the processing

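Calls across all genes depended on the filter and on the arrays fitted. In Flt3+ GPs 4088 genes and 4 members were called between genotypes, against 2679 and 2 with dim probes kept in and 2665 and 1 when only the groups compared were fitted. The test of the difference between populations called 4354 genes, against 2725 with dim probes kept in. Leaving out 1 array gave 1996 to 3475 genes and 2 to 3 members between genotypes in Flt3+ GPs, 4054 to 4789 genes in Flt3- GPs, and 2515 to 4415 genes and 4 to 7 members for the difference between populations. The fewest members were called without Irf8KO Flt3+ replicate 2 between genotypes, and without wild-type Flt3- replicate 2 (4) or 1 (5) for the difference between populations. Under quantile normalization the split of higher and lower calls was 4198 and 4122 between populations in wild type, against 3194 and 5535, and 1976 and 1867 against 3021 and 1333 for the difference between populations. The median over all genes between populations in wild type was -0.12, and -0.013 under quantile normalization.

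Several values changed sign, and the cause was not tested. Most were small and called under neither setting. With normexp this held for Bcl2l11 in Flt3- GPs (0.085) and between Irf8KO populations (-0.070), and for the Bcl2l1 difference between populations (-0.0030). Under quantile normalization it held for Bax in Flt3+ GPs (-0.013) and Bcl2l1 (-0.091), whereas Mcl1 in Flt3- GPs (0.15) became a call of the opposite sign. With the percentile over spots it held for Mcl1 in Flt3- GPs (0.011), Bcl2l11 in wild type (0.0061), Bax in Irf8KO (-0.012) and Bcl2l1 (-0.036). The second probes turned the uncalled Bcl2l1 value in Flt3+ GPs (0.022) and 2 called values, Bcl2l1 in wild type (-0.11) and the Mcl1 difference between populations (0.10), and neither was called there. Leaving out 1 array gave -0.060 to 0.081 for Bcl2l1 between populations' genotype differences, -0.16 to 0.11 for Bcl2l11 in wild type, -0.30 to 0.074 for it in Flt3- GPs, -0.025 to 0.0085 for Mcl1 in Flt3- GPs and -0.058 to 0.067 for Bax in Irf8KO.

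With the experiment number as a replicate block, 3, 7, 7, 7 and 9 members were called in the 5 comparisons, against 4, 7, 8, 6 and 8 without it. The 4 calls that changed are given beside their results, and the block changed no other call of a member.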
